A study of Mus musculus with 6 samples.

Results

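The genes described here are Pigr, which encodes the polymeric immunoglobulin receptor, and 7 genes of the antibody it carries: Jchain (the joining chain), Igha and Ighm (the constant regions of the alpha and mu heavy chains), Igkc (the kappa light chain constant region) and Iglc1, Iglc2 and Iglc3 (the lambda light chain constant regions). The 8 genes were chosen by symbol among 32285 features, of which 392 are immunoglobulin genes. Unique molecular identifiers (UMIs, 1 per captured RNA molecule) were summed per library over classes of cells gated by marker genes, none of which is a member. All levels are counts per 1e6 UMIs of the class in a library (CPM).

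IgA is the main antibody of the gut. Plasma cells of the lamina propria join IgA monomers through the J chain, and the polymeric receptor, made by the epithelium, binds the joined form at the basolateral face of the cell, carries it across and releases it with part of the receptor attached as secretory IgA. IgM with a J chain uses the same receptor. Light chains of the kappa or the lambda type pair with every heavy chain class, and a B cell switches from mu to alpha by recombining the heavy chain locus.

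Droplet single-cell RNA sequencing covered the small intestinal epithelium of 6 mice on a C57BL/6 background, aged 6 to 8 weeks. The 3 libraries labelled IE-HuR-/- came from animals with floxed HuR (Elavl1, an RNA-binding protein) crossed to villin-Cre, which is active in intestinal epithelium and not in lymphocytes, and the 3 control littermate libraries came from HuR fl/fl animals without Cre, labelled wild-type. The methods describe food withdrawal before experiments, whereas the labels give normal feeding, and the suspension was released from the mucosa with EDTA and a trypsin-type enzyme and then checked for EPCAM-positive cells before loading. No library was sorted for B cells or plasma cells, so those seen here are the ones that came along with the epithelium.

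The libraries held 59518012 to 91818560 UMIs, and 60431 of 60706 barcodes had at least 200 genes. Elavl1 RNA was not lower in the epithelial cells of the libraries labelled IE-HuR-/-, at 30.8 ± 0.84 CPM against 29.9 ± 1.56 CPM in controls (SD, n = 3 libraries each). With TMM scaling it was called higher there by 0.17 ± 0.046 on the log2 scale (edgeR, adjusted p = 0.0082), and without it the difference was 0.04 (0.474). The label was thus not borne out by the RNA counts of that gene, and the groups are named by label throughout. The paper reports that HuR protein staining was nearly lost from the small intestinal epithelium of such mice. RNA counts do not measure protein. Pairs of libraries shared 22 to 44 barcodes. The gates found 51729 epithelial cells (49620 enterocytes, 1231 goblet, 153 tuft, 286 enteroendocrine, 77 Paneth and 158 cycling progenitor cells), 259 B cells, 21 plasma cells, 6308 T or NK cells, 191 myeloid cells and 130 plasmacytoid dendritic cells. In every class outside the epithelial and enterocyte gates, which make up most cells, all 10 of its markers were at least 2 times their level over all cells. The gates were set by these same markers, so this is not an independent check of the class names. The 47 cells with markers of both lineages were left out as mixed. The 3 libraries of a group are taken as separate animals. In a sum over cells, fewer cells of a type and less RNA per cell cannot be told apart.

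Pigr lies on the plus strand of chromosome 1 (130826684 to 130852249), Jchain on the minus strand of chromosome 5 (88519809 to 88527891), and Igkc on the plus strand of chromosome 6 (70726435 to 70726966), in the mouse build GRCm38 with the GENCODE M21 annotation. Igha (113254830 to 113260236) and Ighm (113418558 to 113422730) lie in the heavy chain locus on the minus strand of chromosome 12. Iglc1 (19061618 to 19062071), Iglc3 (19065230 to 19065681) and Iglc2 (19198396 to 19200351) lie on the minus strand of chromosome 16. The lambda genes are shown because UMIs are told apart between them only by sequence. A stretch of 120 coding bases from near the start of each is given 5′ to 3′. Capitals in Iglc1 and Iglc3 mark the bases that differ from Iglc2 (chr16:19061950-19062069 for Iglc1, chr16:19198731-19198850 for Iglc2 and chr16:19065560-19065679 for Iglc3, minus strand, GRCm38):
Iglc1: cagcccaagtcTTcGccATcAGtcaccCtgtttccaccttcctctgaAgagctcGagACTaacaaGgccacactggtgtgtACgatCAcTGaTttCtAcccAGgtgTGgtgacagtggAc
Iglc2: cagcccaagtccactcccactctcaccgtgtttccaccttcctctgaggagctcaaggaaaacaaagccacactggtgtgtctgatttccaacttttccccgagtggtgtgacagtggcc
Iglc3: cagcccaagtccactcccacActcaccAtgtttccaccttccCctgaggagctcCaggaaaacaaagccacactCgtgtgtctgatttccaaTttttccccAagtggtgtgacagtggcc
Iglc3 differed from Iglc2 at 7 of these 120 bases, and their coding sequences were 96.2% identical. Iglc1 was 73.75% identical to Iglc2 and 74.9% to Iglc3. A read within a stretch that Iglc2 and Iglc3 share cannot be placed, so their separate values are uncertain.

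The promoter of Pigr is shown because its UMIs were found in every epithelial class. The 100 bases before its start in the RefSeq annotation of GRCm38.p6 (chr1:130826584-130826683, plus strand) read, 5′ to 3′ and with the E-box CACGTG in capitals:
Pigr: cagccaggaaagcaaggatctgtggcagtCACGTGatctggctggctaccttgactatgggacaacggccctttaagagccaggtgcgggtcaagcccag
The E-box, a motif bound by USF factors among others, started 71 bases before the gene's first base. The same 6 letters, which read alike on both strands, were found in 1042 of 32851 promoter windows of this length (3.17%). The match is a description of these letters and not of binding.

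Pigr UMIs were found in every epithelial class, and the Pigr level was highest in enterocytes among them. Its level in enterocytes was 2371, 2288 and 2275 CPM in control libraries 1 to 3 and 2540, 2439 and 2566 CPM in the libraries labelled IE-HuR-/-. The groups did not overlap, although the gap between them was small beside the level itself. The share of all genes without overlap was not determined, here or where a lack of overlap is given below. Summed over all epithelial cells, Pigr was 2220 ± 44.8 CPM in controls and 2411 ± 44.2 CPM in libraries labelled IE-HuR-/- (SD, n = 3 each). It was higher by 0.24 ± 0.032 (SE) on the log2 scale (edgeR quasi-likelihood test, Benjamini-Hochberg adjusted p = 2.32e-05). In this comparison 50.7% of 14354 genes tested were called, 24% of them higher and 26.8% lower, so a call alone sets Pigr apart from few genes. Without the TMM scaling (trimmed mean of M values), the difference of Pigr was 0.12 (adjusted p = 0.0073) and the median of all genes moved from -0.02 to -0.15. The split of calls moved with it, to 14.9% of genes higher and 39.6% lower (54.4% in all).

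**Figure D1:**
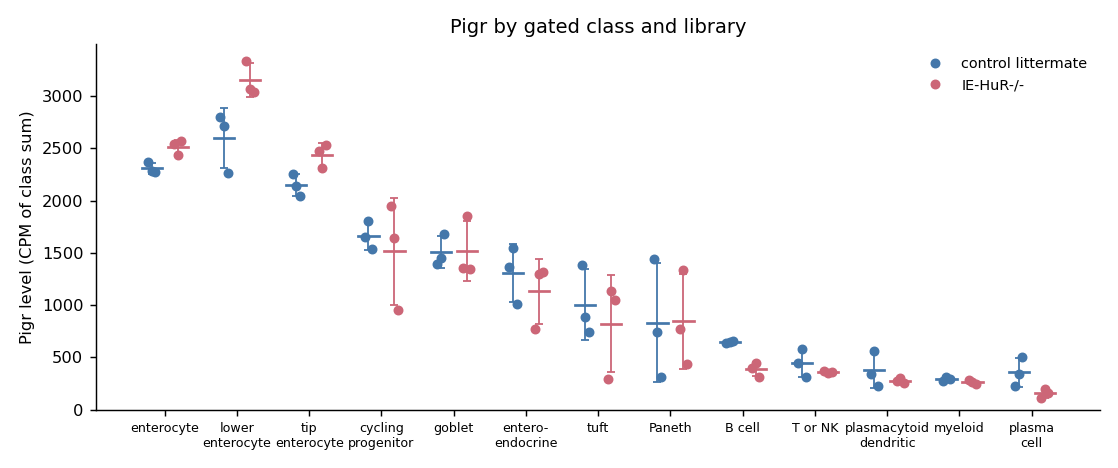
Pigr level (vertical axis, CPM of the class sum) in each gated class (horizontal axis), with 1 point per library, lines at group means and bars of 1 SD for 3 control littermate libraries and 3 libraries labelled IE-HuR-/-. Enterocytes lie between 2275 and 2566 CPM, the lower enterocytes among them have the highest mean, the epithelial classes other than enterocytes have lower means, and the B cell points of the 2 groups do not overlap.

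Among enterocytes, Pigr was called higher both at the villus tip and below it. Only cells with at least 5000 UMIs were placed, 9250 at the tip and 1004 below it of 49620 enterocytes. Cells with tip genes but fewer than 2 were left out. The median cell held 17658 UMIs at the tip and 8562.5 below it. The part of depth in the contrast between positions was not tested. Tip enterocytes, which carried at least 2 tip genes, had 2256, 2137 and 2046 CPM in controls and 2472, 2310 and 2528 CPM in libraries labelled IE-HuR-/-. Lower enterocytes, without tip genes, had 2804, 2718 and 2269 CPM in controls and 3337, 3072 and 3043 CPM. The groups did not overlap in either position. The difference was 0.34 ± 0.050 at the tip (adjusted p = 1.0e-05, edgeR, with 50% of genes called) and 0.34 ± 0.081 below it (adjusted p = 0.00229, with 16.9% called). In enterocytes as a whole it was 0.26 ± 0.041 (adjusted p = 9.23e-06, with 54.6% called). These differences use TMM scaling, and edgeR was not run without it for the 2 positions. In log2 CPM without TMM, the difference below the tip exceeded that at the tip by 0.10 (exact permutation p = 0.3). Within a library the lower enterocytes exceeded the tip by 0.32 ± 0.10 on the log2 scale (SD, n = 6), a 1.25-fold difference with the same sign in 6 of 6 libraries (exact two-sided sign-flip test, p = 0.03125, the smallest that 6 libraries allow, adjusted p = 0.03125 over 7 comparisons).

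As a share of their UMIs, secretory and cycling cells carried less Pigr than enterocytes of the same library. The 10 markers of the class summed to 503858 CPM in Paneth, 227988 in goblet and 91080 in enteroendocrine cells, against 58580 CPM in enterocytes. They summed to 14610 CPM in tuft cells and 2735 CPM in cycling progenitors. The part of such abundant genes in the lower Pigr levels was not tested. Goblet cells, which secrete mucus, were lower by a mean log2 difference of -0.68 ± 0.23 and cycling progenitors of -0.63 ± 0.40 (SD, n = 6). Enteroendocrine cells were at -1.02 ± 0.39, tuft cells at -1.55 ± 0.82 and Paneth cells at -1.73 ± 0.87. Each of the 5 classes was below the enterocytes in 6 of 6 libraries (exact sign-flip test, p = 0.03125 and adjusted p = 0.03125 for each). In the order of mean levels, enterocytes (2413 CPM) were followed by cycling progenitors (1591), goblet (1512), enteroendocrine (1220), tuft (915) and Paneth cells (838). Neighbours in that order past the enterocytes did not differ beyond their spread, with adjusted p of 0.781 between cycling and goblet cells, 0.312 between goblet and enteroendocrine cells, 0.208 between enteroendocrine and tuft cells and 0.781 between tuft and Paneth cells (exact sign-flip tests over 10 neighbour pairs). Enterocytes exceeded cycling progenitors in 6 of 6 libraries, with an adjusted p of 0.156 over the same 10 pairs. Paneth cells exceeded B cells, the next class, in 5 of 6 libraries (adjusted p = 0.312, exact sign-flip test). The lowest libraries of tuft (291 CPM) and Paneth cells (312.5 CPM) lay at the level of T or NK cells (311 to 582 CPM). Whether Pigr in these 2 classes exceeds free RNA was not tested further.

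Pigr was not called between labels in the less frequent epithelial classes. Goblet cells held 1389, 1453 and 1681 CPM in controls and 1356, 1850 and 1343 CPM in libraries labelled IE-HuR-/-, so the groups overlapped (log2 difference 0.19 ± 0.12, adjusted p = 0.268, edgeR, with 26.4% of genes called). Under the gate first written, by number of detected markers, goblet Pigr was called higher by 0.29 (adjusted p = 1.31e-04), and on leaving out 1 library of the main gate it ranged from 0.03 (without library 2 labelled IE-HuR-/-) to 0.27 and was not called. Tuft cells ranged from 744 to 1385 CPM in controls and from 291 to 1131 CPM in the others (adjusted p = 0.96, 0.195% called). Enteroendocrine cells gave a difference of -0.15 ± 0.24 (adjusted p = 0.854, 0.965% called). Paneth cells gave 0.90 ± 0.46 (adjusted p = 0.575, 0.307% called) and cycling progenitors -0.21 ± 0.29 (adjusted p = 0.949, 0.0674% called). Only 326 genes were tested in Paneth sums, which held 25972 to 303998 UMIs per library. In log2 CPM without TMM, the Paneth difference exceeded that of enterocytes by only 0.019. The standard errors in these classes were larger than the difference seen in enterocytes or close to it, apart from goblet cells. A test of the difference itself, between each class and the enterocytes and between lower and tip enterocytes, gave exact permutation p from 0.3 to 1, where 3 against 3 libraries cannot go below 0.1.

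Pigr UMIs were also found in cells outside the epithelium. T or NK cells held 446, 582 and 311 CPM in controls and 366, 349 and 363 CPM in the others, which was lower than enterocytes by 2.61 ± 0.35 on the log2 scale (6 of 6 libraries, exact sign-flip p = 0.03125). The Pigr level in T or NK cells was 14.3% of that in enterocytes as a median over libraries (range 13.7 to 25.4%). The same share for 20 epithelial and enterocyte markers had medians from 5.62 to 31.5%, with a middle value of 9.05%. Pigr thus lay within the range of these markers, in its upper part. The highest was Cdh1, followed by Krt18 at 16.3%. In B cells the median share was 22.6% for Pigr, 29.2% for Krt18 and 9.70% for Cdh1. B cells held 635, 650 and 653 CPM in controls and 404, 451 and 315 CPM in libraries labelled IE-HuR-/-. There Pigr was lower by 0.97 ± 0.21 (adjusted p = 4.15e-04, edgeR), opposite in sign to the epithelium, and the summed level of the 10 epithelial markers in B cells was 1316 to 2506 CPM in controls and 1074 to 1441 CPM in the others. The part of free epithelial RNA in this difference was not tested. Over all cells outside the B lineage the Pigr difference was 0.083 ± 0.037 (adjusted p = 0.0695, with 52.1% of genes called).

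Genes whose level over 36 sums of epithelial class and library was most like that of Pigr were Maoa (Pearson r = 0.90), Gna11 (0.89), Gsto1 (0.88), Fahd1 (0.86) and Mgam (0.86), among 5392 genes compared. Maoa encodes a monoamine oxidase and Mgam a brush border glucosidase. The sums share libraries and differ in depth, and the values are descriptions.

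Of 19 receptors and factors listed as inducing Pigr, 18 were tested in epithelial sums, 11 were higher, 5 lower and 2 not called, with a median log2 difference of 0.15 beside -0.02 over all genes, of which 24% were higher and 26.8% lower. Irf1, an interferon-induced transcription factor, stood at 125, 120 and 126 CPM in controls and 183, 174 and 174 CPM in libraries labelled IE-HuR-/-, a rise of 0.64. The interferon gamma receptor chain Ifngr1 rose by 0.60, from a mean of 112 to 156 CPM. The interleukin 4 receptor chain Il4ra rose by 0.51, from 24.2 to 31.7 CPM, and Tlr4, a sensor of bacterial lipopolysaccharide, by 1.66 at a very low level (0.10 to 0.29 CPM). The genes that fell included Tlr3, a sensor of double-stranded RNA, from 15.5 to 9.04 CPM, and the E-box factor Usf1, from 11.4 to 8.17 CPM. The glucocorticoid receptor Nr3c1 fell from 132 to 97.6 CPM and the interleukin 17 receptor chain Il17ra from 14.4 to 11.8 CPM. Without TMM scaling 8 were higher, 6 lower and 4 not called, with a median of 0.02. Beside them 14.9% of all genes were higher and 39.6% lower there, with a median of -0.15.

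Of 15 genes of the transcytosis machinery, 14 were tested, 7 were higher, 3 lower and 4 not called, with a median of 0.10, beside 24% of all genes higher and 26.8% lower. Rab11a, a GTPase of recycling endosomes, stood at 129, 132 and 136 CPM in controls and 165, 171 and 174 CPM in the others, a rise of 0.49 with no overlap of the groups. Its motor Myo5b rose by 0.21, the sorting adaptor subunit Ap1m2 by 0.16 and the Rab11 effector Rab11fip1 by 0.16. The transferrin receptor Tfrc fell by 0.46, from 8.91 to 5.93 CPM, Rab17, a GTPase known from transcytosis in polarised cells, fell by 0.19 and the kinase Yes1 by 0.13. The count of rises rested on the scaling, since without TMM 1 gene was higher, 4 were lower and 9 were not called, with a median of -0.02, beside 14.9% of all genes higher and 39.6% lower. There Rab11a stayed called at 0.36, whereas Myo5b (0.09, adjusted p = 0.0657, edgeR), Ap1m2 (0.04, 0.565) and Rab11fip1 (0.04, 0.429) were not.

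Of 17 genes for signals that induce IgA or bring plasma cells to the gut, 11 were tested in epithelial sums, 3 were higher, 3 lower and 5 not called, a share close to the 50.7% of all genes called. The survival factor Tnfsf13b (BAFF) stood at 18.5, 17.8 and 17.8 CPM in controls and 9.68, 11.0 and 9.58 CPM in libraries labelled IE-HuR-/-, and fell by 0.71. The chemokine Ccl25, which draws Ccr9-bearing cells to the small intestine, fell by 0.20 (284 to 226 CPM), and the retinal dehydrogenase Aldh1a1 fell by 0.26 (289 to 221 CPM). The 3 genes that rose, the homing integrin chains Itgb7 and Itga4 and the class switch cytokine Tgfb1, stood below 4 CPM in every epithelial sum and at 210, 59.7 and 74.5 CPM in T or NK cells. Without TMM 1 gene of the list (Itgb7) was higher, 4 were lower and 6 were not called, beside 14.9% of all genes higher and 39.6% lower. T or NK cells made up 8.30 ± 1.36% of kept cells in controls and 13.4 ± 0.66% in the others (exact permutation p = 0.1), and their part in these values was not tested.

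Of 12 other Fc and immunoglobulin receptors, 6 were tested, 3 were higher, 1 was lower and 2 were not called, beside 50.7% of all genes called. Lgals3, a galectin that binds IgE among other glycoproteins, rose from 848 to 1009 CPM (0.37). Fcgr3 and Fcgr4, receptors for IgG on myeloid cells, rose at levels below 1 CPM, and Trim21, a cytosolic antibody receptor, fell from 3.80 to 2.07 CPM. Without TMM 3 of the 6 were higher and 2 lower, beside 14.9% of all genes higher and 39.6% lower.

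Immunoglobulin RNA was concentrated in very few cells. The gate for plasma cells, the antibody-secreting end of the B lineage, held 2, 1 and 1 cells in controls 1 to 3 and 7, 8 and 2 in libraries labelled IE-HuR-/-. These 4 and 17 cells were 0.0125 ± 0.0068% and 0.0643 ± 0.0362% of kept cells, and the groups did not overlap (exact permutation p = 0.1, the smallest possible). Library 3 labelled IE-HuR-/-, at 0.0233% (exact 95% interval 0.0028 to 0.084%), lay close to control 1 at 0.0200% (0.0024 to 0.0723%), and the intervals cover counting error only. As a share of cells gated as leukocytes, plasma cells were 0.132 ± 0.0499% and 0.441 ± 0.249% (exact permutation p = 0.2), and B cells were 3.76 ± 0.739% and 3.77 ± 0.479% (p = 1). B cells were 0.349 ± 0.128% and 0.551 ± 0.047% of kept cells (exact permutation p = 0.1).

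Nearly all plasma cells were IgA cells in the libraries labelled IE-HuR-/-. By the heavy chain constant gene with most UMIs, 16 of 17 were Igha and 1 was Ighm there, whereas the 4 control cells were 2 Igha and 2 Ighg1. Kappa light chain RNA led in 15 of 17 and 4 of 4 cells, lambda in the other 2. Jchain was found in 21 of 21 plasma cells. Immunoglobulin genes took a median of 51.9% of a plasma cell's UMIs (range 0.773 to 65.9%), and 19 of 21 cells had 5% or more. The 2 below that were the 2 control cells led by Ighg1, at 0.773 and 1.49%. The median over the B cells of a library was 0.437 to 1.03%, so in this share these 2 cells were nearer to B cells. The other 2 control cells were led by Igha. Cells are not replicates, and the leading heavy chain genes were not tested between labels.

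The plasma cells differed in their pairs of variable genes. There were 18 distinct leading heavy chain variable genes in 20 cells with such a UMI, with Ighv7-3 and Ighv1-19 each leading in 1 cell of library 1 and 1 cell of library 2 labelled IE-HuR-/-, and the leading light chain variable gene differed in each of 19 cells. In a cell, the leading gene held a median of 100% of heavy and 80% of light variable UMIs. All 18 cells with both had different leading pairs, although some leads rested on few UMIs. In 1 cell with 3550 Igkc and 54 lambda UMIs, Iglv1 led with 9 of 20 light variable UMIs. In 1 cell with 204 lambda and 8 Igkc UMIs, Igkv2-107 led with 1 of 2. Not every pair is thus secure.

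Plasma cells of the libraries labelled IE-HuR-/- held 90.1, 79.6 and 59.97% of all immunoglobulin UMIs of their library, and those of controls 36.3, 3.04 and 44.6%. The 3.04% belongs to control 2, whose only gated plasma cell had no Igha UMI and 1.49% immunoglobulin UMIs. Cells outside the B lineage held 18.3, 63.9 and 33.2% in controls and 6.02, 18.0 and 32.7% in the others (exact permutation p = 0.2). The share outside differed between members. It was highest for Ighm, at 81.6 ± 1.97% in controls and 69.6 ± 11.0% in libraries labelled IE-HuR-/-, and for Iglc3, at 54.0 ± 10.3% and 45.6 ± 10.8%. For Igkc it was 18.4 ± 23.0% and 14.5 ± 11.8%, and for Iglc2 14.1 ± 11.4% and 10.7 ± 5.24%.

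**Figure D2:**
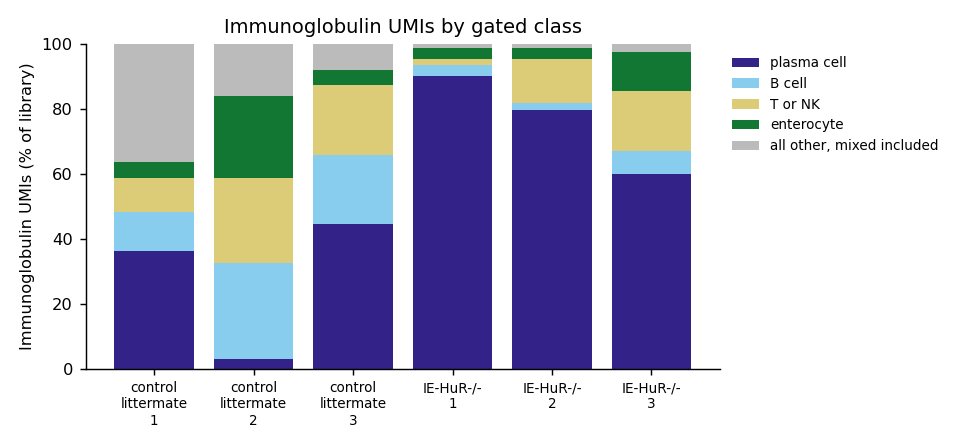
Immunoglobulin UMIs of each library (vertical axis, percent of the library's immunoglobulin UMIs) split by gated class, for 3 control littermate and 3 libraries labelled IE-HuR-/- (horizontal axis), with 1 bar per library. Plasma cells hold 59.97 to 90.1% in the libraries labelled IE-HuR-/- and 3.04 to 44.6% in controls.

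Outside plasma cells, 12 cells had at least 5% immunoglobulin UMIs, of which 8 were gated as enterocytes, 3 as T or NK cells and 1 as mixed. No B cell reached that share. The 3 T or NK cells, in libraries 2 and 3 labelled IE-HuR-/-, held 10549 of the 17101 immunoglobulin UMIs of their class, and the mixed cell, in control 1, held 3955. These cells weigh on the sums described next, so values without cells of 1% or more immunoglobulin UMIs are given beside them. Whether they are doublets was not tested.

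In epithelial cells, Igkc, Igha and Jchain RNA was several times higher in the libraries labelled IE-HuR-/-. Igkc stood at 4.52, 5.93 and 1.12 CPM in controls and 19.99, 22.1 and 29.4 CPM in the others, Igha at 1.41, 2.10 and 0.603 against 13.1, 10.7 and 20.9 CPM. Jchain stood at 0.638, 0.606 and 0.0652 CPM against 3.22, 3.83 and 4.31 CPM. For all 3 genes the lowest library labelled IE-HuR-/- was above the highest control, and the share of all genes so placed was not determined. The log2 differences were 2.70 ± 0.56 for Igkc (adjusted p = 0.0177), 3.51 ± 0.51 for Igha (0.0057) and 3.17 ± 0.57 for Jchain (0.0094, all edgeR). With Pigr, 4 of the 7 members tested were called higher and 0 lower, beside 24% of genes called higher and 26.8% lower. Ighm (0.11 ± 0.52, adjusted p = 0.883), Iglc1 (2.22 ± 1.14, 0.178) and Iglc2 (0.98 ± 0.47, 0.103) were not called, and Iglc3 was under the filter on low counts. Over all kept cells, Igkc held 7171, 1360 and 2237 UMIs in controls and 36682, 38285 and 15775 in the others. An Igkc UMI was found in 1.61% of T or NK cells in controls and 10.3% in libraries labelled IE-HuR-/-. In myeloid cells the shares were 1.33 and 13.8%, and in B cells 84.7 and 74.9%. The part of RNA from plasma cells in the epithelial values was not tested.

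The call for Igkc in epithelial cells was not stable. It was lost when control 1 or any library labelled IE-HuR-/- was left out (adjusted p 0.05005 to 0.0649) and with replicate number as a block (0.104), as were those of Igha (0.0657) and Jchain (0.0695) with the block. With mixed cells kept, the 1 immunoglobulin-rich cell of control 1 took the Igkc difference to 0.58 (adjusted p = 0.735), that of Igha to 1.65 (0.282) and that of Jchain to 1.25 (0.446). Without cells of 1% or more immunoglobulin UMIs, the differences were 3.37 ± 0.38 for Igkc (0.00245), 3.72 ± 0.41 for Igha (0.0019) and 3.71 ± 0.42 for Jchain (5.03e-04).

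Within separate epithelial classes, all 3 genes were higher in tip enterocytes, Igkc and Igha in goblet cells and Igkc in lower enterocytes, where the others were under the filter on low counts. Tip enterocytes gave 3.59 for Igkc (adjusted p = 5.83e-04), 3.39 for Igha (8.87e-04) and 3.62 for Jchain (4.56e-07), and lower enterocytes 2.48 for Igkc (2.75e-05). Over all 6 libraries, tip Jchain rested on 128 UMIs, with 0 CPM in the lowest library, and lower enterocyte Igkc on 75 UMIs. Whether either passed the filter on low counts without the libraries labelled IE-HuR-/- was not tested. In goblet cells, which the gate keeps apart from enterocytes, Igkc stood at 1.27, 0.553 and 0.227 CPM against 8.23, 8.76 and 5.79 CPM (log2 difference 3.53 ± 0.40, adjusted p = 1.28e-06). Goblet Igha was 0.364, 0.184 and 0 CPM against 4.63, 3.44 and 3.03 CPM (4.23 ± 0.55, adjusted p = 8.23e-06), and no goblet cell had 1% immunoglobulin UMIs in either group. Each goblet sum rests on 0 to 32 UMIs of a gene. Control goblet sums held at most 7 UMIs of either gene, under the filter's count of 10. Both genes thus passed the filter only through the libraries labelled IE-HuR-/-, so being tested depended on the rise itself. With mixed cells kept the goblet Igkc difference was 1.56 (adjusted p = 0.0048, edgeR), and under the gate first written, by number of detected markers, it was 2.32 and not called (0.0516). B cell markers summed to 0.227 to 1.27 CPM in goblet cells of controls and 0.257 to 1.25 CPM in the others, with 5 of 10 at 0 (Cd22, Pax5, Fcmr, Fcer2a and Cr2). The plasma cell markers summed to 299 to 367 CPM and 279 to 341 CPM there, with 3 of 10 at 0 (Tnfrsf17, Derl3 and Fcrl5). An Igkc UMI was found in 1.13 ± 0.386% of enterocytes of controls and 11.2 ± 2.96% in libraries labelled IE-HuR-/-, or 0.463 ± 0.157% and 4.09 ± 1.37% after thinning every cell to 1000 UMIs.

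**Figure D3:**
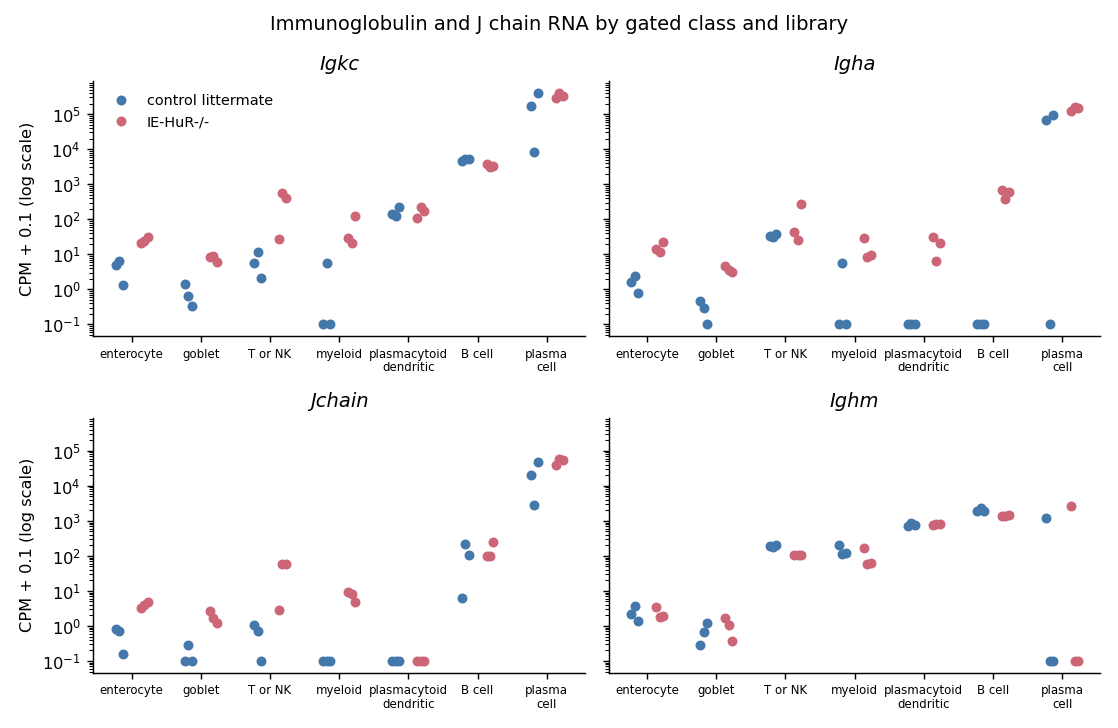
Levels of Igkc, Igha, Jchain and Ighm (vertical axes, CPM + 0.1 on a log scale) in 7 gated classes (horizontal axes), with 1 point per library of the 2 groups. Igkc, Igha and Jchain are higher in every enterocyte library labelled IE-HuR-/- than in any control, whereas Ighm is lower in every T or NK library labelled IE-HuR-/-.

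Over all cells outside the B lineage, Igkc was higher by 3.61 ± 0.78 (adjusted p = 0.0199), Igha by 2.88 ± 0.66 (0.0236) and Jchain by 3.99 ± 0.77 (0.0142, edgeR). Of 8 members tested, 3 were higher and 0 lower, beside 52.1% of genes called. Without immunoglobulin-rich cells the differences were 2.97, 2.26 and 3.54 (adjusted p = 0.00456, 0.00349 and 0.00164). The Igkc call was lost on leaving out any 1 of 5 libraries (all but library 1 labelled IE-HuR-/-), that of Igha on leaving out any control and that of Jchain without control 2 (adjusted p = 0.0535, edgeR). With mixed cells kept the differences were 1.69 for Igkc (0.329), 1.85 for Igha (0.166) and 2.16 for Jchain (0.207), and with the replicate block the adjusted p were 0.0793, 0.0894 and 0.0861.

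The ratio of Igha or Jchain to kappa UMIs was compared between enterocytes and the plasma cells of the same library. Igha to Igkc was 0.390, 0 and 0.234 in the plasma cells of controls and 0.447, 0.392 and 0.442 in those of libraries labelled IE-HuR-/-. In enterocytes it was 0.308, 0.357 and 0.537 and then 0.657, 0.486 and 0.718. Within a library the enterocyte ratio was 1.40-fold that of plasma cells (4 of 5 libraries higher, exact sign-flip p = 0.1875, leaving out control 2 with no Igha UMI in its plasma cell). Jchain to Igkc was 0.117 to 0.338 in plasma cells and 0.0448 to 0.172 in enterocytes, 0.738-fold (3 of 6 libraries higher, exact sign-flip p = 0.4375). With all cells kept, neither ratio could be told from that of the gated plasma cells of the same library. In 4 libraries there were 1 or 2 such cells. A sign-flip test over 5 libraries cannot go under 0.05. Without immunoglobulin-rich cells, control enterocytes held 60, 90 and 36 Igha UMIs beside 122, 212 and 67 Igkc UMIs. The others held 643, 357 and 722 beside 937, 709 and 1295. Igha per Igkc was then above that of plasma cells in each of the 5 libraries, which was not tested.

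**Figure D4:**
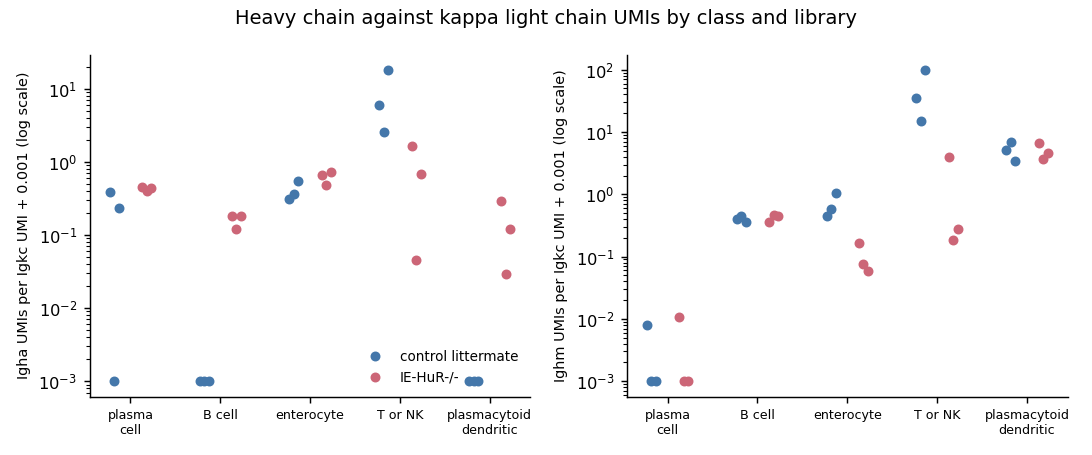
Igha UMIs per Igkc UMI (left vertical axis) and Ighm UMIs per Igkc UMI (right vertical axis), each + 0.001 on a log scale, by gated class (horizontal axes), with 1 point per library of the 2 groups. Igha per Igkc in enterocytes (0.308 to 0.718) lies near plasma cells (0 to 0.447), while Ighm per Igkc in plasmacytoid dendritic cells (3.39 to 7) lies above B cells (0.362 to 0.461).

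Ighm did not follow the other genes. Its ratio to Igkc in enterocytes was 5.06-fold that of B lineage cells of the same library (6 of 6 higher, exact sign-flip p = 0.03125). That reference includes the Igkc of plasma cells, and the direction depended on it. Beside B cells alone, the enterocyte ratio was higher in controls (0.447, 0.587 and 1.06 against 0.397, 0.448 and 0.362). It was lower in libraries labelled IE-HuR-/- (0.163, 0.0745 and 0.0585 against 0.364, 0.461 and 0.446). T or NK cells held 194, 175 and 203 CPM of Ighm in controls and 107, 107 and 108 CPM in libraries labelled IE-HuR-/-. The 3 controls were all above the 3 others, which were nearly equal, so the groups were well apart. Ighm fell by 0.86 ± 0.065 on the log2 scale (edgeR, adjusted p = 7.35e-08). It was the only 1 of 5 members tested in T or NK cells that was called, beside 5.13% of genes, and it was called under each of 15 alternatives.

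An Ighm UMI was present in 49.997 ± 5.14% of T or NK cells in controls and 28.1 ± 1.26% in the others, or 16.4 ± 2.20% and 9.18 ± 0.520% after thinning to 1000 UMIs (2 and 9 shallower cells left out). In enterocytes, which should lack the gene, the thinned shares were 0.545 ± 0.198% and 0.611 ± 0.372%, at a median of 1648.5 UMIs per cell against 4762 in T or NK cells. The T or NK shares were thus far above the enterocyte shares. B cell markers summed to 47.0 to 60.02 CPM in T or NK cells of controls and 43.2 to 60.3 CPM in the others, with none of the 10 at 0 in all libraries, so their range overlapped between labels.

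The Ighm difference was present in T cells of both receptor kinds. In cells with Trdc (the delta chain constant region) and no Trac (alpha chain) UMI, Ighm was 196 ± 28.8 CPM in controls and 111 ± 4.27 CPM in libraries labelled IE-HuR-/-. With Trac and no Trdc it was 197 ± 7.004 CPM and 96.5 ± 6.72 CPM, and with both or neither 186 ± 13.8 CPM and 115 ± 4.78 CPM. In each subset the 3 controls lay above the 3 others (exact permutation p = 0.1, the smallest possible). The split was made on 675 and 673, 718 and 1311, and 1397 and 1534 cells.

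**Figure D5:**
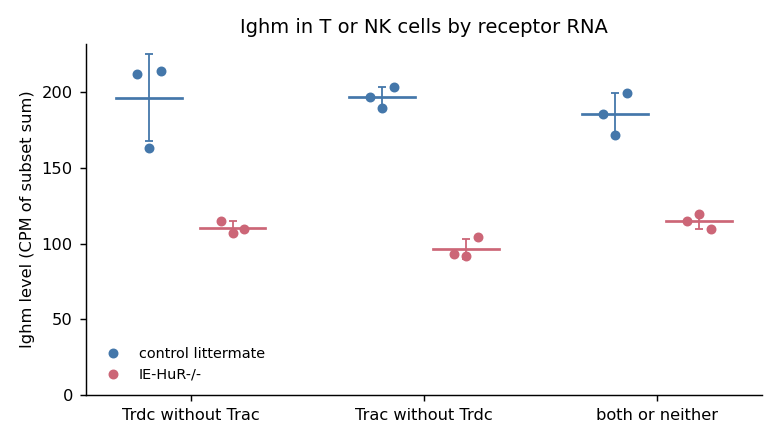
Ighm level (vertical axis, CPM of the subset sum) in T or NK cells by Trdc and Trac RNA (horizontal axis), with 1 point per library, lines at group means and bars of 1 SD for 3 libraries per group. Controls have means of 186 to 197 CPM and the libraries labelled IE-HuR-/- means of 96.5 to 115 CPM.

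The other members in T or NK cells rested largely on those 3 cells. Igkc was 5.54, 11.8 and 2.07 CPM in controls and 26.7, 573 and 392 CPM in the others (adjusted p = 0.181, edgeR), and 26.7, 12.0 and 42.9 CPM in the latter without immunoglobulin-rich cells (0.316). Jchain was not called with all cells (adjusted p = 0.228). Without those 3 cells it was 0.989, 0.608 and 0 CPM against 2.69, 3.11 and 5.81 CPM, higher by 2.69 ± 0.56 (adjusted p = 0.00928) on 0 to 36 UMIs per library. Control sums then held at most 5 Jchain UMIs, under the filter's count of 10. Jchain thus passed the filter only through the libraries labelled IE-HuR-/-, so being tested depended on the rise itself. Igha without them was 33.6 ± 3.28 CPM in controls and 37.4 ± 10.7 CPM in the others (0.822), at a level that enterocytes of controls (1.47 ± 0.80 CPM) did not reach.

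B cells of the libraries labelled IE-HuR-/- held less Igkc, Iglc2 and Ighm RNA and more Igha RNA. Igkc stood at 4680, 5208 and 5264 CPM in controls and 3774, 3089 and 3257 CPM in the others, and fell by 0.82 ± 0.13 (edgeR, adjusted p = 3.87e-06). Ighm stood at 1856, 2335 and 1905 CPM against 1375, 1423 and 1453 CPM, and fell by 0.76 ± 0.15 (1.79e-04). Iglc2 stood at 774, 830 and 963 CPM against 608, 522 and 559 CPM, and fell by 0.83 ± 0.18 (6.57e-04). In none of these did the groups overlap, and the share of all genes without overlap in B cells was not determined. Of 8 members tested 1 was higher and 4, with Pigr, were lower, beside 8.86% of genes called higher, 9.68% lower and 18.5% either way. Iglc1 (0.50, adjusted p = 0.449), Iglc3 (-0.45, 0.584) and Jchain (0.35, 0.866) were not called.

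Without TMM scaling, which moved the median of all genes in B cells from -0.03 to 0.23, Igkc fell by 0.56, Ighm by 0.50 and Iglc2 by 0.58, all still called (adjusted p = 0.0025, 0.0244 and 0.0288), beside 16.9% of genes called higher, 5.7% lower and 22.6% either way. The 10 B cell markers also summed to less, 4789 to 6773 CPM in controls and 4447 to 4603 CPM in libraries labelled IE-HuR-/-, and the 10 plasma cell markers to more, 440 to 685 against 706 to 1010 CPM. T or NK markers summed to 3018 CPM in library 2 labelled IE-HuR-/- and to at most 239 CPM in the other five. The part of these markers in the falls was not tested. In B and plasma cells summed as one (11.6% of genes called), Pigr was the only member of 8 called, lower by 0.93 (adjusted p = 0.00364).

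Igha had 0 UMIs in the B cells of each control and 679, 368 and 583 CPM in the B cells of libraries labelled IE-HuR-/-. It thus passed the filter on low counts only through the latter. Against a floor of 3 UMIs over the control group (8.12 CPM), it was at least 68.9-fold higher in the sum of the 3 libraries (559.9 CPM). An Igha UMI was found in 0 of 114 control B cells, which by counting error alone allows a share of cells with a UMI of up to 2.63% and sets no limit on cells expressing the gene, and in 35 of 145 in the others. By the heavy chain gene with most UMIs, control B cells were 80 Ighm, 16 Ighd, 3 Ighg1 and 0 Igha, with 15 undecided. Those labelled IE-HuR-/- were 87 Ighm, 14 Ighd, 16 Igha, 4 Ighg2b, 1 Ighg1 and 1 Ighg3, with 22 undecided. Kappa led in 87 and lambda in 14 control B cells, against 85 and 28. A Jchain UMI was found in 4 of 114 and 22 of 145 B cells.

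Plasmacytoid dendritic cells, the interferon-producing dendritic cells, carried Ighm and Iglc3 RNA in both groups. Ighm was 709, 881 and 748 CPM in controls and 739, 790 and 806 CPM in the others, and Iglc3 was 770, 1306 and 1142 CPM against 787, 1370 and 990 CPM. Neither was called between labels (adjusted p = 0.986 for both, edgeR, with 0.58% of genes called and 0 of 5 members tested). Jchain had 0 UMIs in all 130 cells, which in the same sense allows a share of cells with a UMI of up to 2.31%. The B cell markers summed to 15.2 to 18.0 CPM in controls and 25.7 to 78.7 CPM in the others, with 5 of 10 at 0 (Cd79a, Cd22, Pax5, Fcmr and Cr2). The plasma cell markers summed to 557 to 709 CPM and 488 to 693 CPM, with 3 of 10 at 0 (Tnfrsf17, Pou2af1 and Fcrl5). The ratio of Ighm to Igkc was 11.9-fold that of B cells and the ratio of Iglc3 to Iglc2 22.8-fold (both 6 of 6 libraries higher, exact sign-flip p = 0.03125). Iglc3 to Iglc2 was 9.91 to 101 in plasmacytoid dendritic cells, on 979 and 56 UMIs, and 0.788 to 2.52 in B cells, on 818 and 675 UMIs.

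Myeloid cells had Ighm at 205, 111 and 125 CPM in controls and 171, 57.2 and 62.6 CPM in the others, which was not called (adjusted p = 0.889, edgeR, with 0.41% of genes and 0 of 2 members called). Igkc there was 0, 5.53 and 0 CPM against 28.5, 20.4 and 120 CPM on 1 to 25 UMIs where it was found, under the filter on low counts.

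Over 72 sums of class and library, the genes most like Jchain were Iglv1 (r = 0.88), Igkc (0.87), the B lineage coactivator Pou2af1 (0.85, a marker of the plasma cell gate), Igha (0.79) and Iglc1 (0.79), among 5658 genes compared. Of 7 other immunoglobulin constant genes, 2 were tested in epithelial sums and 1, Ighg2b, was higher, beside 24% of all genes called higher. It stood at 0.0136 to 0.0233 CPM in controls and 0.170 to 0.863 CPM in libraries labelled IE-HuR-/-. It passed the filter on low counts only through the latter.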

How the data were processed

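Raw UMI counts per gene and barcode were deposited by the authors as filtered matrices for 6 libraries. The file headers name Cell Ranger 6.1.2 and the labels mm10, whereas the methods name other versions, a human reference and another kit, so the kit (5′ or 3′) is unsettled. Cells with at least 200 genes were gated by UMIs of marker lists, and mixed cells were left out by markers, since no doublet caller was run. The members and lists were chosen with earlier results of these data known, and the gate's scoring rule was revised after class sizes and member values were seen. Named beyond the members were called genes of each list (at most 4 rises and 4 falls) and the 5 genes most like Pigr and Jchain. Class sums (at least 5 cells per library) were tested with edgeR 4.0.16 (R 4.3.3, limma 3.58.1, TMM, filterByExpr with min.count 10, robust quasi-likelihood), called at an adjusted p under 0.05 over all genes of the class. DESeq2 1.42.0 was an alternative. Libraries were the replicates. Two-sided exact permutation tests (enumerated in Python 3.11.15 with numpy 2.4.6) cannot go below 0.1 for 3 against 3 libraries or 0.03125 for sign flips over 6. In counts simulated for the epithelial comparison (14354 genes) a log2 change of 1 was recovered in 83% of 100 changed genes and of 2 in 96.0% of 99. For B cells (2314 genes) the shares were 51.6% and 99%. False calls made up 9.18% of calls in epithelial, 8.12% in T or NK and 6.33% in B cell sums. Each is above the share that the threshold of 0.05 allows. No change as small as that of Pigr in epithelial cells was simulated. All other genes were left unchanged in the simulation, whereas 50.7% of genes were called in the epithelial data. The simulated rates do not cover that case. Sequences came from RefSeq and GENCODE tables.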

Additional observations from a re-analysis of the deposited data

Results flagged for a closer look

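The levels of 2 members differed by label in opposite directions in different cell classes, with every library of a group on one side in each class, and the difference between classes was not tested. Of all genes tested, 54.6% were called in enterocytes and 18.5% in B cells, in either direction (edgeR). The share of all genes with such opposite differences is not given here, so the pattern does not set these members apart. Pigr, as the mean CPM of libraries labelled IE-HuR-/- minus controls, differed by 204 in enterocytes and by -256 in B cells. Igkc differed by 21.2 in enterocytes, 6.91 in goblet cells, 324 in T or NK cells and 54.6 in myeloid cells, and by -1677 in B cells. In T or NK cells Igkc was not called (adjusted p = 0.181, edgeR) and differed by 20.7 without immunoglobulin-rich cells, and in myeloid cells it was under the filter on low counts.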

How the results depend on the processing

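Over 25 results and 326 alternatives, 282 kept their direction and their side of the threshold or their value, 28 lost a call, 1 (Pigr in goblet cells under the gate first written) gained one, 15 moved and 0 reversed. The Pigr difference in epithelial cells (0.24) kept its call under 16 alternatives (0.231 to 0.267 on leaving out 1 library), as did Ighm in T or NK cells under 15 (-0.90 to -0.83). Igkc in epithelial cells (2.70) was 2.31 to 3.16 on leaving out 1 library, 2.70 (adjusted p = 0.0543, edgeR) under a stricter cell filter (500 genes or more, mitochondrial share up to 25%), and 0.58 with mixed cells kept. Samples with the same replicate number did not all pass a correlation of 0.1. The values for numbers 1 to 3 were 0.146, -0.256 and 0.689 in epithelial and 0.485, 0.0882 and -0.0064 in T or NK cells. In B cells they were 0.0594, 0.0721 and 0.0428. Whether libraries of the same number share more than the number was not settled by these values. In B cells, but not in the other classes, every library correlated best with its own number. With the replicate block the Igkc difference was 2.77, and 6859 genes were called against 7281. The calls of Igha and Jchain in epithelial cells, and of Igkc, Igha and Jchain outside the B lineage, were also lost with the block. The difference in plasma cell share of kept cells (0.0518 percentage points) was 0.0382 to 0.0723 on leaving out 1 library, 0.0900 under that filter, 0.309 as a share of leukocyte-gated cells and 5.46e-04 under the gate by number of detected markers, which was the first one written. That gate put most B and plasma cells among mixed cells, and its replacement was chosen after seeing the data, as were the splits by Trdc and Trac and the chain classes per cell. DESeq2 called 356 genes in T or NK cells and 223 in B cells, against 582 and 429 by edgeR. Without the count filter 987 were called in T or NK cells, and 246 to 1219 on leaving out 1 library. The number of plasma cells and of UMIs per goblet sum limits the precision.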
